A study of Mus musculus with 7 samples.

Results

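Potassium channel genes were examined in the arcuate nucleus of mice that lack the phosphatase gene Dusp8 and of control mice. The members were all probes whose symbol in the platform annotation starts with Kcn, which gave 119 probes of 80 genes out of 25697 probes, and out of 16593 named genes. The samples came from 7 male C57BL/6J mice aged 40 weeks, 4 of them Dusp8-deficient and 3 control, with 1 bead array per animal. All 7 animals, controls included, were littermates kept for 30 weeks, from an age of 8 to 10 weeks, on food in which fat supplied 45% of the energy. The allele behind the deficiency is not described in the sources used here, and no animals on chow were part of the comparison. By their column headings, the Dusp8-deficient arrays are called ko_108, ko_125, ko_148 and ko_168, and the control arrays wt_136, wt_145 and wt_177.

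Potassium channels let potassium leave or enter the cell down its gradient and so set the resting potential, the shape of the action potential and the rate of firing. Voltage-gated channels open on depolarisation, and inward rectifiers pass current near the resting potential, some of them gated by G proteins or by ATP. Tandem-pore channels carry leak current, and a further class opens with internal calcium or sodium. In arcuate neurons that control feeding, inward rectifiers and M-current channels are targets through which hormones and nutrients change firing, while in glia Kir channels buffer the potassium that neurons release.

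The labels were checked on the targeted gene. The deposited Dusp8 signal was 104, 77, 94 and 98 units in the Dusp8-deficient arrays and 624, 558 and 540 units in the controls, without overlap. Its log2 fold change was -2.52 (SE 0.23, limma, adjusted p = 0.00963), and it was the only probe of 14067 tested that passed the threshold of an adjusted p below 0.05 (0.00711%). Between 12295 and 13976 probes per array were above background, and the mean signal was 58.0 units in ko_108 against 60.6 to 74.9 units elsewhere. The tissue's neurons were represented on all arrays by the summed signal of 14 neuron markers. It was 3226 to 4388 units per array (Dusp8-deficient) and 3523 to 4008 units (control). All 14 were tested, which takes detection in at least 3 of 7 arrays. Of the defining arcuate markers, Npy, Pomc, Cartpt and Ghrh were tested, Slc6a3 was not detected often enough, and no probe here is named Agrp. Array ko_108 stood apart in its cell type markers. The summed signal of 8 arcuate neuron markers was 1594 units there against 3405 to 4703 units elsewhere, and that of 12 oligodendrocyte markers was 7464 units against 2532 to 4614 units. Between the groups, 7 of those 8 arcuate neuron markers had a lower mean in the Dusp8-deficient arrays (median log2 fold change -0.55), 11 of the 12 oligodendrocyte markers a higher one (0.49) and 4 of 5 tanycyte markers a lower one (-0.55). None of these markers passed, and their part in the values below was not tested. In bulk tissue, fewer cells of a type and less RNA per cell cannot be told apart.

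Counted by gene, the share of potassium channels detected lay close to that of all named genes. A probe entered the test once 3 or more arrays had it above background (detection p below 0.05), which held for 58 of 119 potassium channel probes (48.7%) and for 54.7% of all probes. Of the genes, 46 of 80 potassium channel genes (57.5%) had such a probe, against 58.6% of all named genes. Of the 61 other probes, 32 were detected in 1 or 2 arrays and 29 in none, and 34 genes had no tested probe. Detection in all 7 arrays was reached by 35 probes of 30 genes, or 29.4% of the potassium channel probes, against 34.8% of all probes. Per array the number of detected potassium channel probes was 59, 60, 58 and 62 in the Dusp8-deficient arrays and 58, 53 and 49 in the controls, so the groups met at 58. The 2 lowest counts came from wt_145 and wt_177, the arrays with the fewest detected probes overall (12620 and 12295).

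**Figure D1:**
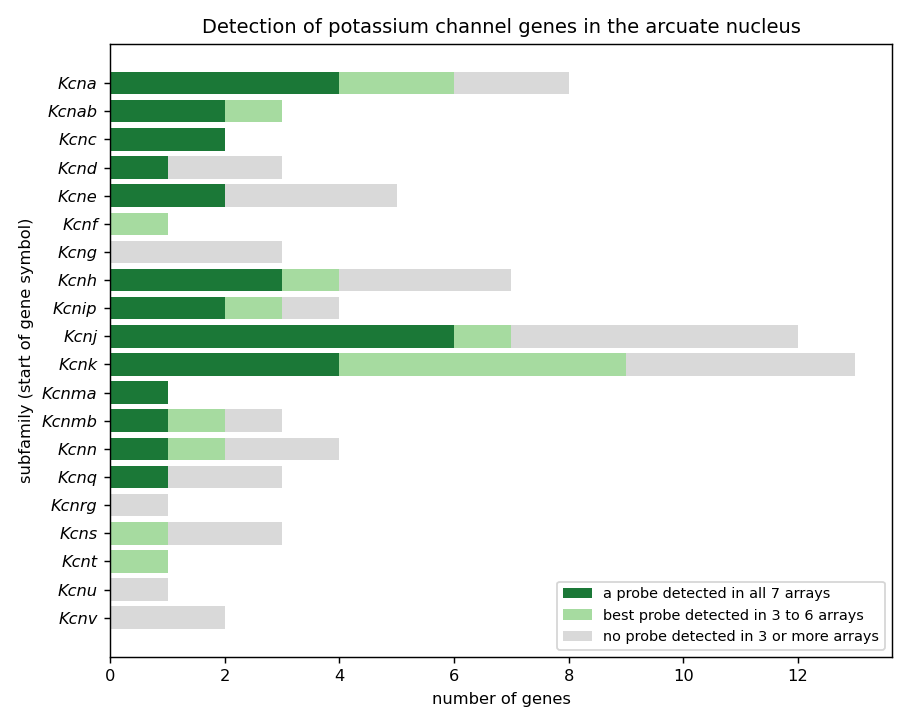
Number of potassium channel genes in each subfamily (vertical axis, start of the gene symbol), by how often their probes were above background (dark, a probe in all 7 arrays; light, best probe in 3 to 6 arrays; grey, fewer). The Kcnk and Kcnj subfamilies hold the most tested genes (9 of 13 and 7 of 12), and no gene of Kcng, Kcnv, Kcnrg or Kcnu was tested.

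Among voltage-gated pore genes, 14 of 23 were tested, which included 6 of 8 Kcna genes (Kv1 channels of axons), both Kcnc genes (Kv3 channels of fast-firing neurons) and 4 of 7 Kcnh genes (ether-a-go-go channels). Of the Kv4 genes, which carry A-type current, Kcnd2 was tested and Kcnd1 and Kcnd3 were not. Of the M-current family, Kcnq3 was tested and Kcnq1 and Kcnq5 were not. The silent subunits, which form no channel on their own but modify other Kv channels, were mostly below background, with 2 of 9 genes tested (Kcnf1 and Kcns3). Auxiliary subunits of voltage-gated channels were tested in 8 of 13 cases, among them all 3 Kcnab genes and 3 of 4 Kcnip genes, whose calcium-binding proteins assemble with Kv4 channels. Of 12 inward rectifier genes 7 were tested, with Kcnj5 and Kcnj9, subunits of G protein-gated channels, among those that were not. Of 13 tandem-pore genes 9 were tested, and of 10 genes of calcium- or sodium-activated channels and their subunits 6 were. Kcne2, a subunit abundant in choroid plexus, was not tested, while the summed signal of 4 other choroid plexus markers ranged from 744 to 1085 units in Dusp8-deficient mice and from 811 to 1087 units in controls.

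The brightest potassium channel probes are given first, in deposited signal units. Probes bind with different strength, so signals of different genes are given side by side without a comparison. Kcnc4, the Kv3.4 channel, read, on its brighter probe, 364 to 756 units in Dusp8-deficient mice and 578 to 646 units in controls. Kcnab2, a beta subunit of Kv1 channels, read 389 to 759 and 428 to 461 units, and Kcnk1, a weakly conducting tandem-pore channel, 339 to 450 and 396 to 437 units. For all 3 genes the control range lay within the Dusp8-deficient range. Kcna2, the main Kv1 pore of axons, read 119 to 205 units and 100 to 242 units, and Kcnk2, the stretch- and lipid-sensitive channel TREK-1, 86 to 249 units and 136 to 207 units.

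No potassium channel gene passed the test between Dusp8-deficient and control mice. Of 46 genes, each read by its brightest tested probe, 22 had a higher and 24 a lower mean in the Dusp8-deficient arrays, with a median log2 fold change of -0.03 beside -0.0019 over all tested probes. Setting the 4 genes above background in no control to their bound left the median of the 46 genes at -0.03. It could not have moved, since the estimates and bounds of all 4 lay above it. Over single probes, 25 of 58 had a log2 fold change above 0 (43.1%, against 49.7% of all tested probes). The sign of that median turned with the arrays used, from -0.05 without ko_148 to 0.09 without wt_177. None of the 58 probes reached an adjusted p below 0.05, and all 58 had an adjusted p of 0.996 (limma, Benjamini-Hochberg over 14067 probes). The unadjusted p was below 0.05 for 3 probes, or 5.17%, where the share over all tested probes was 4.81%. Of these, 2 were higher (3.45%, against 2.31% of all tested probes) and 1 was lower (1.72%, against 2.5%). The count of 3 became 5 without wt_145 and 1 without wt_177, where the shares over all tested probes were 4.12% and 3.72%. The groups did not overlap for 3 probes, all higher in the Dusp8-deficient arrays (5.17%, against 2.78% of all tested probes in that direction), and none was lower (against 2.79%). All 3 had passed the filter through the Dusp8-deficient arrays alone, so that a difference in this direction was in part set by the filter. A probe above background in only the 4 Dusp8-deficient arrays can pass at 3, whereas the 3 controls must all be above background. Among the 54 probes detected in at least 1 array of each group, none passed the adjusted threshold (0.00726% of all such probes did). None of the 54 had groups that did not overlap, against 4.83% of all such probes (2.19% higher and 2.64% lower). An unadjusted p under 0.05 was left for 1, which was lower (1.85%, against 4.46% of all such probes in either direction and 2.46% lower).

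**Figure D2:**
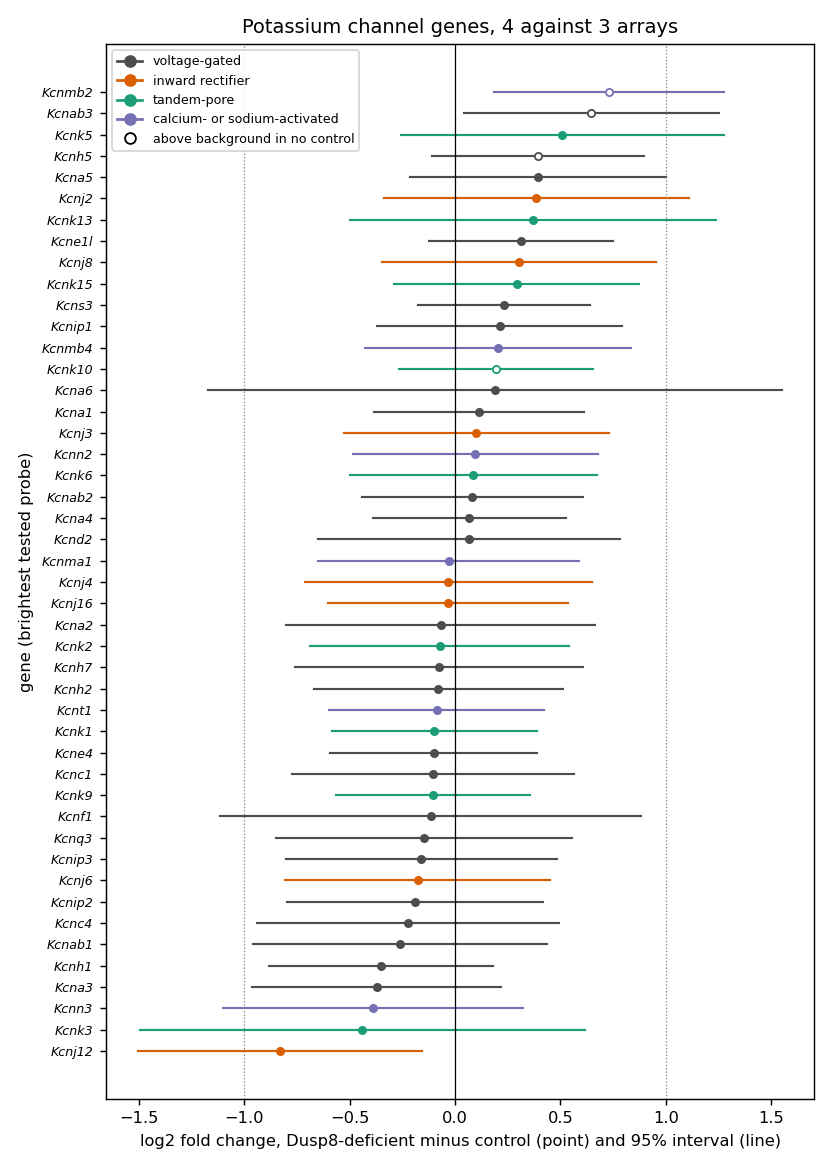
Log2 fold change (points, Dusp8-deficient minus control, 4 against 3 arrays) and 95% interval from the limma fit (lines) of the 46 tested potassium channel genes, each by its brightest probe and coloured by channel class. Open points are the 4 genes above background in no control, whose fold is only bounded. The other estimates run from -0.83 for Kcnj12 to 0.51 for Kcnk5, and dotted lines mark a change of 2-fold.

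The precision of these estimates was close to that of other probes. The 95% interval of a potassium channel probe had a median half-width of 0.60 on the log2 scale, against 0.57 over all tested probes. It stayed inside 2-fold in both directions for 45 of 58 probes (77.6%, against 76.8% of all), and it reached past 2-fold for the other 13. The median size of the log2 fold change was 0.19, against 0.18 over all tested probes, and the median within-group SD was 0.37 against 0.34.

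Among calcium-activated channels, the auxiliary subunit Kcnmb2 had the smallest p of all members, on a probe above background in no control. Kcnmb2 encodes the beta2 subunit, which makes large-conductance calcium-activated channels inactivate. Its log2 signal was 4.98, 4.75, 4.85 and 5.61 in ko_108, ko_125, ko_148 and ko_168 and 4.47, 4.30 and 4.18 in wt_136, wt_145 and wt_177. All 4 Dusp8-deficient arrays lay above all 3 controls, and ko_168 was the highest. The deposited signals behind these values were 13 to 29 units against -5 to 6 units, and the probe was above background in all 4 Dusp8-deficient arrays and in none of the controls. It had thus passed the filter through the Dusp8-deficient arrays alone, so that a difference in this direction was in part set by the filter. With each control at the higher of its own value and the lowest detected signal, the group means on these arrays stood 1.40-fold apart. This bound holds for the offset used, leaves sampling error out and is no lower limit on a difference between the groups. The probe did not pass (adjusted p = 0.996, limma). A second Kcnmb2 probe, ILMN_2733544, was above background on no array and read 0, 1, 3 and 2 units against 5, 0 and 7 units. Kcnmb4, the beta subunit typical of neurons, read 0.20 (SE 0.28) on its brighter probe, ILMN_2639207. The pore gene of the same channel, Kcnma1, had means of 5.41 ± 0.32 (SD, n = 4) and 5.44 ± 0.48 (SD, n = 3), with a log2 fold change of -0.03 (95% interval -0.65 to 0.59). Of the small-conductance channels, which carry current after each spike, Kcnn3 read -0.39 (SE 0.32) and Kcnn2 0.10 (SE 0.26), and the sodium-activated Kcnt1 read -0.09 (SE 0.23).

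Among inward rectifiers, Kcnj12 had the lowest estimate of all members. Kcnj12 encodes Kir2.2, a strong inward rectifier that holds the resting potential. Its log2 signal was 4.92, 4.71, 5.01 and 5.81 in the Dusp8-deficient arrays and 5.76, 5.67 and 6.41 in the controls, detected on all 7 arrays. In ko_108, ko_125 and ko_148 it lay below every control, but ko_168 lay above wt_136 and wt_145, so the groups overlapped. Its group means were 5.11 ± 0.48 (SD, n = 4) and 5.95 ± 0.40 (SD, n = 3), and the log2 fold change was -0.83 (SE 0.30, 95% interval -1.50 to -0.16, adjusted p = 0.996, limma). The related strong rectifiers read 0.38 (SE 0.32) for Kcnj2 and -0.03 (SE 0.31) for Kcnj4.

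The G protein-gated channels, which open when receptors such as those for opioids or GABA are active, showed no call. Kcnj6 was read by 3 tested probes, at -0.18 (SE 0.28), -0.30 (SE 0.21) and -0.08 (SE 0.22), the first on the brightest probe. Kcnj3, which pairs with Kcnj6, read 0.10 (SE 0.28). Kcnj16, a Kir subunit of glia, had means of 5.85 ± 0.35 (SD, n = 4) and 5.88 ± 0.33 (SD, n = 3) and a log2 fold change of -0.03 (95% interval -0.60 to 0.54). Of 10 tested astrocyte markers 7 had a higher mean in the Dusp8-deficient arrays, none passed, and the median log2 fold change was 0.14. After normalisation, their mean log2 level was 7.28 (Dusp8-deficient) and 7.18 (control). Summed without normalisation, where bright genes weigh most, they gave 4655 to 5721 units (Dusp8-deficient) and 4358 to 4463 units (control). These ranges did not overlap, but several marker lists were summed and the sums were not tested. The part of astrocyte content in the Kcnj16 values was not tested. Kcnj8, the Kir pore of ATP-sensitive channels in vessel-wall cells, read 0.30 (SE 0.29) on a probe above background in 2 Dusp8-deficient arrays and 1 control. The summed signal of 7 endothelial and mural markers was 833 to 1325 units and 895 to 1053 units.

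**Figure D3:**
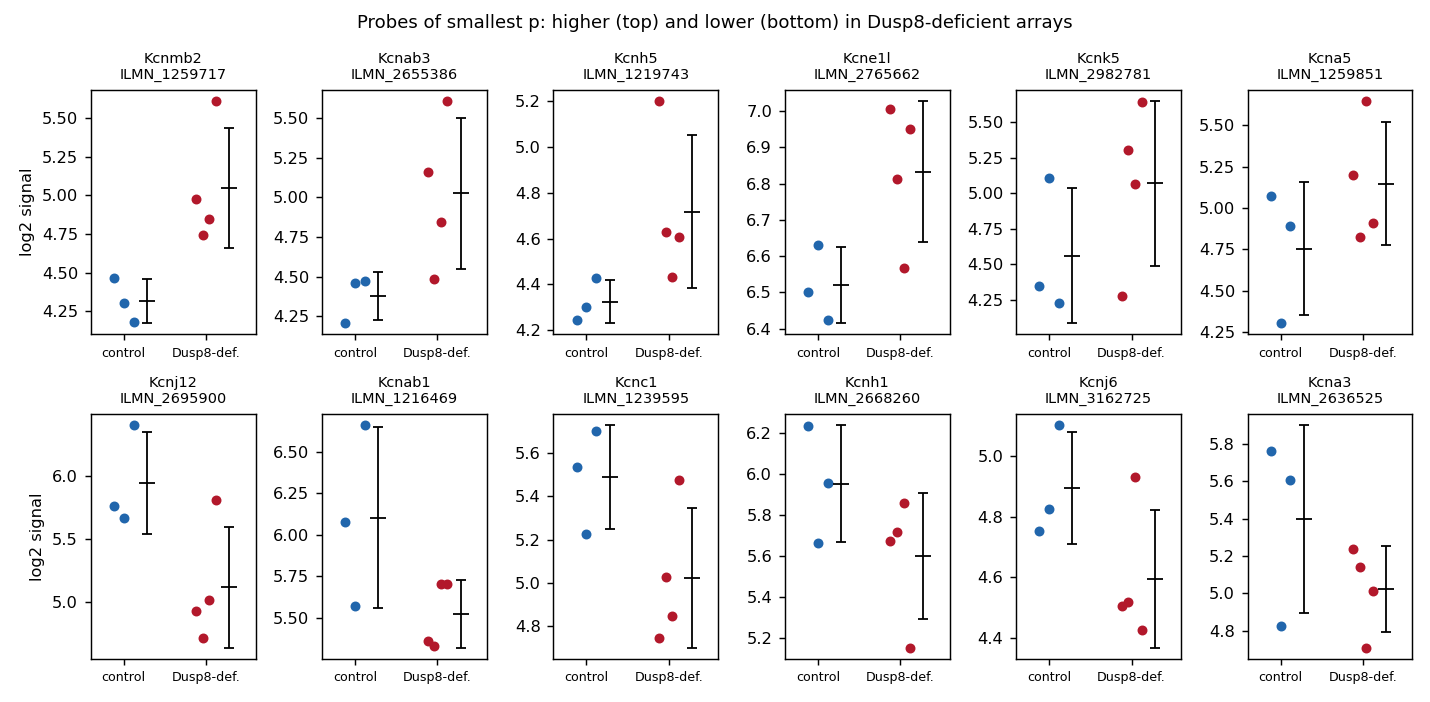
Log2 signal per array for the 6 probes of smallest p in each direction, higher (top) and lower (bottom) in the Dusp8-deficient arrays. Points are arrays (blue, 3 controls; red, 4 Dusp8-deficient), and the bars beside them are the mean ± SD. Kcnmb2, Kcnab3 and Kcnh5 are the probes whose groups do not overlap, all of them above background in no control. The vertical axes differ between panels.

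Among voltage-gated channels, Kcnab3 had the smallest p. Kcnab3, a beta subunit of Kv1 channels, had a log2 signal of 5.16, 4.48, 4.85 and 5.61 in the Dusp8-deficient arrays and 4.20, 4.46 and 4.47 in the controls. Every Dusp8-deficient array lay above every control, with ko_125 almost level with wt_177, and the probe was above background in none of the controls. For this probe too, the direction was in part set by the filter. By the same kind of bound, with the same limits, the group means stood 1.39-fold apart, and the probe did not pass (adjusted p = 0.996, limma). Kcnh5, an ether-a-go-go channel of brain, read 5.20, 4.63, 4.43 and 4.61 against 4.24, 4.30 and 4.43, and again 1 array, ko_148, was almost level with wt_177. This probe was detected in 3 Dusp8-deficient arrays and no control, so the same limit holds, and it did not pass (adjusted p = 0.996, limma). For Kcne1l, a single-span subunit, the Dusp8-deficient arrays read 87 to 112 units and the controls 61 to 82 units. On the normalised scale ko_148 lay within the controls, and the log2 fold change was 0.31 (SE 0.20). Kcna5 read 0.39 (SE 0.27) on a probe detected in 6 arrays.

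The 3 genes that follow had estimates below 0 on every tested probe. Kcnab1, whose product speeds inactivation of Kv1 channels, read -0.58 (SE 0.27), -0.26 (SE 0.31) and -0.15 (SE 0.23) on 3 probes. On the first of these the log2 signal was 5.36, 5.33, 5.70 and 5.70 against 6.08, 5.57 and 6.66, so that wt_145 lay inside the Dusp8-deficient range. Kcnc1, the Kv3.1 channel, read -0.47 (SE 0.24) on ILMN_1239595 and -0.10 (SE 0.30) on its brighter probe. Kcna3, the Kv1.3 channel, read -0.37 (SE 0.26), with 4.71 to 5.24 in the Dusp8-deficient arrays and 4.83 to 5.76 in the controls. None of these 3 genes passed.

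For each of the voltage-gated genes that follow, the 95% interval included 0. The log2 fold change was -0.07 (95% interval -0.80 to 0.67) for Kcna2 and 0.11 (SE 0.22) for Kcna1, the Kv1.1 channel. It was 0.07 (95% interval -0.65 to 0.78) for Kcnd2 and -0.15 (95% interval -0.85 to 0.56) for Kcnq3, an M-current subunit. Kcnh1 read -0.35 (SE 0.24), Kcnh7 -0.08 (SE 0.31), Kcnip3 -0.16 (SE 0.29) and Kcnab2 0.08 (SE 0.23). Kcnh2, the Erg1 channel, read -0.08 (SE 0.26) on its brighter and 0.11 (SE 0.23) on its dimmer probe. With an array left out, the estimates of 24 of 47 probes followed changed sign in at least 1 fit, those of Kcna1, Kcna2, Kcnab2, Kcnd2, Kcnh2, Kcnh7, Kcnip3 and Kcnq3 among them.

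The tandem-pore channels, which set leak conductance and respond to acid, stretch and anaesthetics, split into 5 genes with a higher and 4 with a lower mean. Kcnk3 encodes TASK-1, an acid-sensitive leak channel. Its log2 signal was 5.20, 5.57, 6.53 and 7.19 in ko_108, ko_125, ko_148 and ko_168 and 7.11, 6.69 and 5.88 in wt_136, wt_145 and wt_177. Both groups spread widely and overlapped, with ko_108 the lowest array and ko_168 the highest, and the log2 fold change was -0.44 (95% interval -1.50 to 0.62). Kcnk9, the related TASK-3 channel, varied less, with means of 6.15 ± 0.25 (SD, n = 4) and 6.25 ± 0.11 (SD, n = 3) and a log2 fold change of -0.11 (SE 0.21). Kcnk1 read -0.10 (95% interval -0.59 to 0.39) and Kcnk2 -0.07 (95% interval -0.69 to 0.54) on its brighter probe. Kcnk5, an alkali-activated channel, read 0.51 (SE 0.34), on a probe above background in 3 Dusp8-deficient arrays and 1 control. Its signal was 0 units in ko_108 and 19 to 31 units in the other Dusp8-deficient arrays, against 3, 18 and -2 units in the controls. The Kcnk5 probes ILMN_1232263 and ILMN_1249949 were above background on no array. Kcnk13, a channel of microglia, read 0.37 (SE 0.39), with a summed signal of 8 microglia markers of 734 to 1075 units in Dusp8-deficient mice and 713 to 1084 units in controls. Kcnk10, the TREK-2 channel, was above background in 3 Dusp8-deficient arrays and no control. Its log2 signal was 4.80, 4.26, 4.47 and 4.74 against 4.43, 4.42 and 4.28, so the groups overlapped, with ko_125 below every control.

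**Figure D4:**
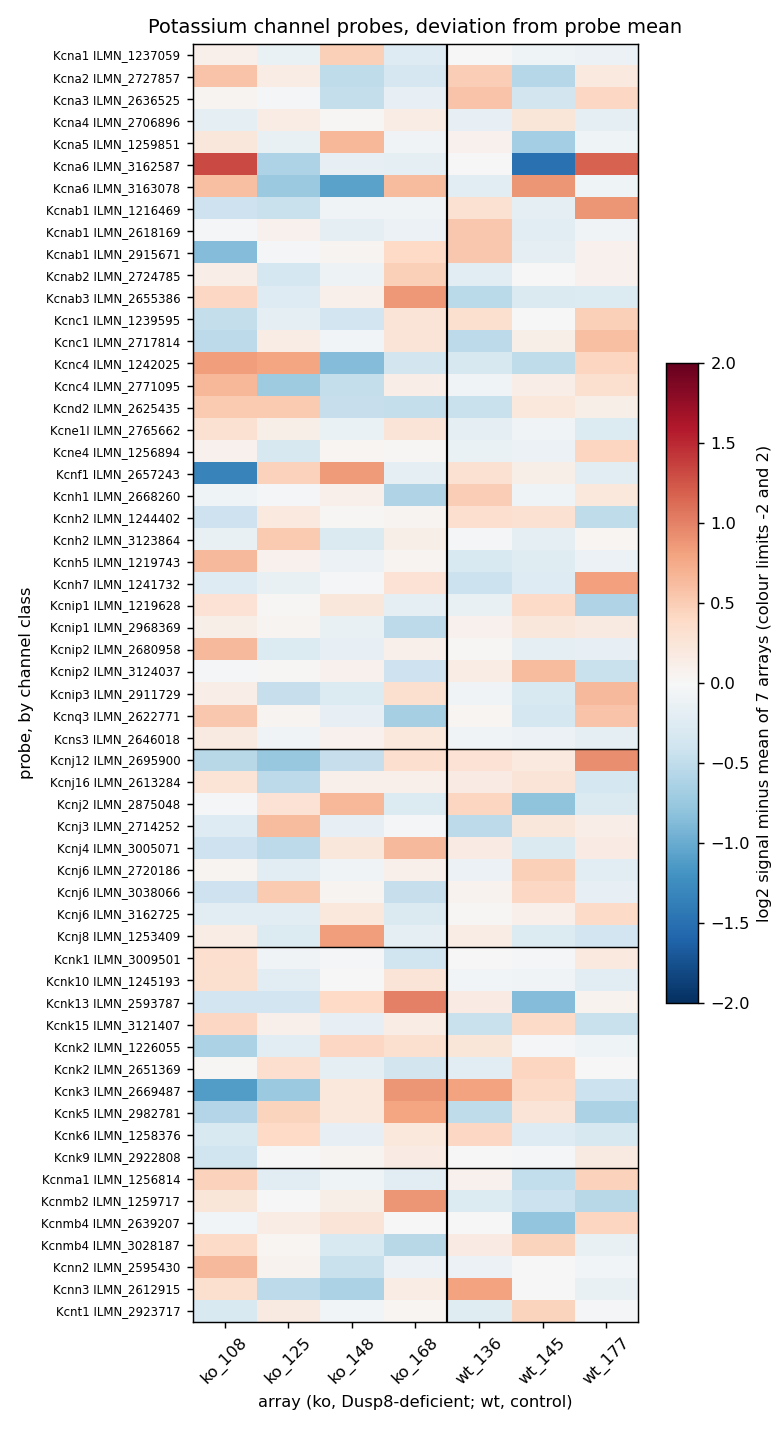
Log2 signal of the 58 tested potassium channel probes (rows, grouped by channel class from voltage-gated at the top to calcium- or sodium-activated at the bottom) minus the mean of each probe over the 7 arrays (columns, Dusp8-deficient left and control right of the line). No array is high or low throughout, and the strongest deviations are single probes such as Kcna6 in ko_108 and wt_145 and Kcnf1 in ko_108.

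Values varied between single arrays in both groups. Array ko_108 held the highest value for 13 of the 58 probes and the lowest for 8, where it held the highest of 18.1% and the lowest of 20.3% of all tested probes. The SD of its deviations from the probe means was 0.49 log2 units over these probes, against 0.33 to 0.41 in the other 6 arrays, and over all tested probes it was 0.46. Kcnf1, a silent subunit, was at 4.39 in ko_108 and at 5.51 to 6.57 in the other arrays, in a library with the lowest summed signal of arcuate neuron markers. Whether arcuate neuron content had a part in that value was not tested.

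Probes of 1 gene often differed in direction. Of 10 genes with several tested probes, 4 had the same sign on every probe (Kcnab1, Kcnc1, Kcnj6 and Kcnk2) and 6 did not, and for 5 of those 6 the probes were more than 0.3 log2 units apart. Kcna6, the Kv1.6 channel, had the widest spread of all members. On ILMN_3162587 its log2 signal was 7.68, 5.74, 6.19 and 6.16 in the Dusp8-deficient arrays and 6.35, 4.87 and 7.54 in the controls, and on ILMN_3163078 it was 6.88, 5.54, 5.20 and 6.90 against 6.06, 7.16 and 6.20. The probes parted most in wt_145, which was the lowest array on the first and the highest on the second. The log2 fold changes were 0.19 (SE 0.61) and -0.34 (SE 0.46). For Kcnip1 the probes read 0.21 (SE 0.26) and -0.29 (SE 0.21), for Kcnc4 0.23 (SE 0.43) on the dimmer and -0.22 (SE 0.32) on the brighter, and for Kcnip2 0.18 (SE 0.25) and -0.19 (SE 0.27). A dimmer Kcnmb4 probe read -0.26 (SE 0.26). The sources used here do not say which transcript each probe reads.

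**Figure D5:**
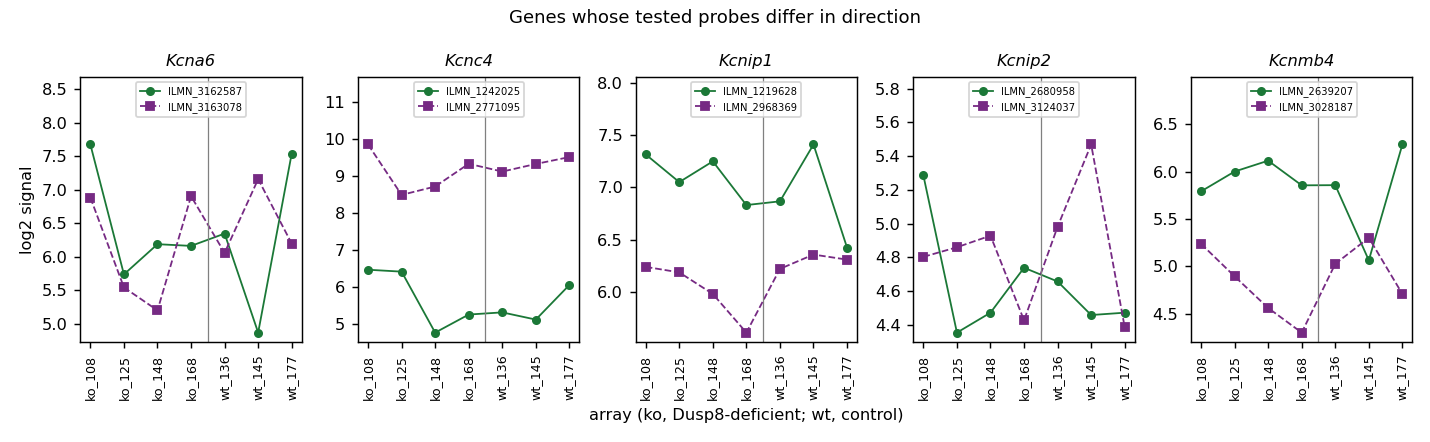
Log2 signal per array of the 2 tested probes (circles and squares) of the 5 potassium channel genes whose probes differ in sign by more than 0.3 log2 units. The Dusp8-deficient arrays lie left and the controls right of the grey line. Lines join values of 1 probe for reading only, and for Kcna6 the probes part most in wt_145.

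Proteins that assemble with or anchor potassium channels, and whose symbols do not start with Kcn, gave no call either. Of 35 such genes listed, 28 had a probe and 25 were tested, with a higher mean for 9 and a lower mean for 16, and a median log2 fold change of -0.12. None passed, none had an unadjusted p below 0.05 on its brightest probe, and the groups did not overlap for 1 (4.00%, against 5.57% of all tested probes). That gene was Dlg1, a scaffold of Kv1 channels, at -0.37 (SE 0.19, adjusted p = 0.996, limma). Rgs4, which speeds the closing of G protein-gated channels, read 0.59 (SE 0.28). Dpp6, a Kv4 subunit, read -0.14 (SE 0.19) on the brighter and -0.65 (SE 0.29) on the dimmer probe, and Dpp10 read -0.44 (SE 0.32) on a probe detected in 3 arrays. Of the regulatory subunits of ATP-sensitive channels, Abcc8 was not tested. Abcc9 read -0.27 (SE 0.22) on a probe detected in 4 arrays and 0.02 (SE 0.18) on ILMN_3104271, detected in 3.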

How the data were processed

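Per the file headers, the authors deposited intensities without normalisation between arrays, with a detection p-value per probe. These intensities go below 0, so a background had been subtracted, by a method that the sources used here do not give. A deposited table of processed intensities, quantile-normalised from its values, served as an alternative. Signals were normalised with neqc (offset 16, quantile, log2) of limma 3.58.1 in R 4.3.3. Of 25697 probes, 14067 with a detection p below 0.05 in at least 3 of 7 arrays were tested with lmFit and eBayes, two-sided, and adjusted by Benjamini-Hochberg. The brightest tested probe stood for a gene. For a probe above background in none of a group's arrays at most a bound is given (none if the fitted 95% interval includes 0), the brighter mean over the higher of its own value and the lowest detected signal per array. The column headings give the genotype and no replicate number. The number of arrays limits the precision. The labels call the samples biological replicates. All 80 symbols matched RefSeq (GRCm38.p6) by Entrez ID. The steps were tested on simulated data.

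The members and lists were chosen with earlier results of these data known. The genes named are 43 listed channels (7 without a probe), the 6 probes of smallest p per direction, those whose groups do not overlap, genes whose probes differ in sign by over 0.3, and probes detected in all arrays of 1 group alone. Kcnf1, Kcnk13, Kcne4 and partner genes were named after their values were seen.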

Additional observations from a re-analysis of the deposited data

Results flagged for a closer look

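In 60 sets of 4 Dusp8-deficient values (58 probes, the mean signal and the number of detected potassium channel probes), Dixon's criterion found 1 array apart from the rest in 2 sets, where chance gives about 1 in 20, or 3. The log2 signal of Kcne4, a single-span subunit, was 4.63 in ko_125 against 4.96 to 5.03 in the others. The mean signal was 58.0 units in ko_108 against 73.4 to 74.9 units. The 3 controls were too few to examine.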

How the results depend on the processing

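No potassium channel probe passed the threshold under any alternative run, nor at an adjusted p below 0.1 (limma). Of 47 probes followed, 23 kept their direction under every alternative that tested them. Among these, Kcnj12 and Kcnab1 were tested under all 18 alternatives, Kcnmb2 and Kcnab3 under 16 and Kcnh5 under 13, since the filters left them out elsewhere. Kcnmb2, Kcnab3 and Kcnh5 had passed the filter through the Dusp8-deficient arrays alone. Their direction was in part set by the filter, so that its persistence is no support for a difference. The number of probes with an unadjusted p below 0.05 was 3 of 58, where the share over all tested probes was 4.81%. Without a filter on dim probes (80 genes tested) it was 5 of 119, against 4.69% of all probes. With detection in all 7 arrays (30 genes tested) it was 1 of 35, against 4.40% of all probes so filtered. Array weights gave 5 of 58, against 5.99%. Among probes detected in at least 1 array of each group, a filter chosen after seeing the data, it was 1 of 54, against 4.40% in that fit. With 1 array left out it was 1 (without wt_177, against 3.72%) to 5 (without wt_145, against 4.12%). The median log2 fold change of -0.03 was 0.022 with array weights and -0.053 to 0.086 with 1 array left out (without ko_148 and without wt_177). The replicate numbers of the labels showed no pairing, since the correlations of deviations between same-numbered samples were -0.07, 0.07 and -0.00067. With the replicate number as a block on the processed values, 3 probes had an unadjusted p below 0.05, against 5.52% of all tested probes. In that fit the median was 0.034, and the estimates changed sign for Kcna2 (0.035), Kcnab2 (-0.065), Kcnk1 (0.020), Kcnma1 (0.048) and Kcnq3 (0.061). With array weights they changed sign for Kcnc1 (0.083), Kcnh7 (0.094), Kcnj4 (0.00036), Kcnk2 (0.0037) and Kcnn2 (-0.046), each on its brightest tested probe. The cause was not tested. With 1 array left out, 24 probes changed sign in at least 1 fit. Their log2 fold changes ran as follows, for the brightest tested probe of a gene unless a probe is named. One set was Kcna1 -0.032 to 0.22, Kcna2 -0.37 to 0.16, Kcna6 (ILMN_3162587) -0.50 to 0.84, Kcna6 (ILMN_3163078) -0.59 to 0.0067, Kcnab2 -0.062 to 0.22, Kcnc1 -0.40 to 0.16, Kcnc4 (the dimmer probe, ILMN_1242025) -0.016 to 0.55 and Kcnd2 -0.13 to 0.23. Another was Kcnh2 -0.36 to 0.068, Kcnh7 -0.31 to 0.31, Kcnip1 -0.027 to 0.47, Kcnip2 -0.48 to 0.070, Kcnip3 -0.36 to 0.12, Kcnj16 -0.22 to 0.14, Kcnj3 -0.13 to 0.24 and Kcnj4 -0.26 to 0.14. The last was Kcnk1 -0.22 to 0.021, Kcnk2 -0.22 to 0.13, Kcnk9 -0.17 to 0.014, Kcnma1 -0.29 to 0.20, Kcnmb4 -0.13 to 0.48, Kcnn2 -0.11 to 0.26, Kcnq3 -0.36 to 0.092 and Kcnt1 -0.23 to 0.11. Signals near background limit what can be seen for dim probes.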
